A study of Homo sapiens with 20 samples.

Results

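Isoform usage was compared between JINB8, a CD47-deficient somatic mutant of the Jurkat T cell leukemia line, and WT Jurkat cells. A gene entered the comparison when its transcripts summed to 200 or more counts over the 10 libraries of each line, which held for 13896 of 60719 genes. Of these, 10049 genes had at least 2 transcripts above a low-count filter, and these 49835 transcripts of the 232184 annotated ones were tested. At the edge of the gene minimum, IL22RA2 entered with 339 counts in Jurkat and 200 in JINB8, and COMTD1 stayed out with 286 and 199.99. For every transcript the share was its percentage of its gene's counts in a library, so that a change of the gene's total does not move it. A share of counts favors long transcripts over short ones of the same gene, so which transcript of a gene leads depends on transcript length, and the switches described below were also counted on shares of counts divided by length.

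Each line was sampled once in each of 10 conditions, giving 10 matched pairs and 20 libraries of poly(A)-selected RNA. At 1 h the cells were untreated (UT), stimulated through CD3 and CD28 by antibodies on the plate (CD3_CD28), stimulated so with thrombospondin-1 added (CD3_CD28_TSP1), or given thrombospondin-1 alone (TSP1), and the last 3 of these treatments were repeated at 3 h and 6 h. All cells had been moved to a serum-free medium for sequencing, and thrombospondin-1 was added at 1 μg/ml. JINB8 is a somatic mutant line, so CD47 loss cannot be told apart from other differences between these 2 lines. No condition was sequenced more than once per line, and nothing in the labels states that libraries came from separate cultures, so p-values measure the spread between these libraries.

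Libraries held 16107920 to 31737615 expected counts. CD47 mRNA was still present in JINB8, at 124 to 165 CPM (counts scaled to the library total), and stood at 253 to 371 CPM in Jurkat, without overlap. All 12 T cell markers were at 1 CPM or more in every library, with summed levels of 2110 to 2828 CPM in Jurkat and 2355 to 3253 CPM in JINB8. The 5 myeloid markers summed to at most 2.05 CPM and the 4 epithelial markers to at most 4.01 CPM in any library. The 5 B cell markers summed to 34.6 to 53.5 CPM in Jurkat and 7.02 to 14.1 CPM in JINB8, and the 4 fibroblast markers to 1.81 to 6.21 and 7.54 to 14.7 CPM, and their part in the results was not tested. The JINB8 library with the fewest counts (CD3_CD28_TSP1, 3 h) also had the highest share of counts on retained-intron transcripts, 6.54% against 4.97% to 6.203% in the other JINB8 libraries.

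Most human genes make several mRNAs. Alternative first exons are set by where transcription starts, cassette exons by whether the spliceosome keeps or skips an internal exon, and alternative last exons by where the transcript is cleaved and polyadenylated. In T cells such choices are well known for the phosphatase CD45 and for the RNA-binding proteins that control splicing themselves, many of which regulate their own mRNAs by switching to a form that is not translated into full protein.

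The sequences below show the kind of change that was found, each read from GRCh38 on the strand of the gene. The first set holds 4 internal coding exons whose use differed between the lines, in capitals, with 20 bases of intron in lower case on each side. All 4 are preceded by AG and followed by GT. The 33 bases of TIA1 (chr2:70229059-70229091, minus strand) and the 147 bases of RNF213 (chr17:80278764-80278910, plus strand) are multiples of 3 and leave the reading frame intact when skipped. The 95 bases of MBNL1 (chr3:152456267-152456361, plus strand) and the 91 bases of CLK1 (chr2:200860125-200860215, minus strand) are not.
TIA1: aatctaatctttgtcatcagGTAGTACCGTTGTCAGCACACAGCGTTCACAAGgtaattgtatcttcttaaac
MBNL1: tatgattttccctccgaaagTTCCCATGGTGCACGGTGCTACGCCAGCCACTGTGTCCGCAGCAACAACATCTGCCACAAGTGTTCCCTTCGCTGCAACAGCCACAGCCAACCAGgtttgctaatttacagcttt
CLK1: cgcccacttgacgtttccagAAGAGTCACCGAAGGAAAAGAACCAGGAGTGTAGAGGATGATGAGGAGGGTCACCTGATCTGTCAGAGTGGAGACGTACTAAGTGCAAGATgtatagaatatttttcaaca
RNF213: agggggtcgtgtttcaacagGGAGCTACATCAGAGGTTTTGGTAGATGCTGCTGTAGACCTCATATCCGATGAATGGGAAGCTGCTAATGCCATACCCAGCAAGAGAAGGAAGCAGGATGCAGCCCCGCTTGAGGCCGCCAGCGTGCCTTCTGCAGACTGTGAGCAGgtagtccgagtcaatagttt

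The second set holds the 100 bases just before the annotated start of transcripts, with CG in capitals. These transcripts begin at different first exons of one gene and were used differently. The stretch before CEP128-202 (chr14:80939541-80939640, minus strand) is 29.0% G or C with 0 CG. By the annotation it is also intron of CEP128-209, directly before the second exon of that transcript. Whether transcription starts there was not tested. The stretch before CEP128-209 (chr14:80941739-80941838, minus strand) is 61.0% G or C with 5 CG. The stretches before CDK6-202 (chr7:92836574-92836673, minus strand) and CDK6-201 (chr7:92833918-92834017, minus strand) hold 13 and 12 CG. For reference, 84.3% of the 35116 RefSeq gene starts on GRCh38 have at least 1 CG in the same window, with a median of 5.
CEP128-202: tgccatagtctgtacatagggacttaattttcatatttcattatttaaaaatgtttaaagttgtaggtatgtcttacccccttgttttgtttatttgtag
CEP128-209: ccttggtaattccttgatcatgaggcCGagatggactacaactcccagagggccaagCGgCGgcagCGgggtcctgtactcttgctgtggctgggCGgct
CDK6-202: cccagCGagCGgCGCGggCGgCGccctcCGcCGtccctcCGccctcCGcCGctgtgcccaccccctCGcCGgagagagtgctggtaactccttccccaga
CDK6-201: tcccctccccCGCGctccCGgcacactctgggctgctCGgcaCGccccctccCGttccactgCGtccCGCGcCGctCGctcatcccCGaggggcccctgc

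A transcript was said to differ in usage (a usage call) when its adjusted p was under 0.05 in edgeR's test of usage across all transcripts, its share moved by at least 10 percentage points on average, and the difference had the same sign in all 10 pairs. By this rule 86 transcripts of 80 genes differed, which is 0.173% of the 49835 transcripts and 0.796% of the 10049 genes tested. Of these 86, 46 (0.0923% of transcripts tested) were higher and 40 (0.0803%) lower in JINB8. Without the other criteria, 684 transcripts (1.37%) had an adjusted p under 0.05, and 402 (0.807%) moved by 10 points in the same direction in all pairs without regard to any p. The 86 shifts ranged from 10.1 to 57.1 points in size, with a median of 14.9 points. In 34 of them the 10 Jurkat and the 10 JINB8 shares did not overlap, and in 52 the ranges overlapped while each pair still pointed the same way.

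**Figure D1:**
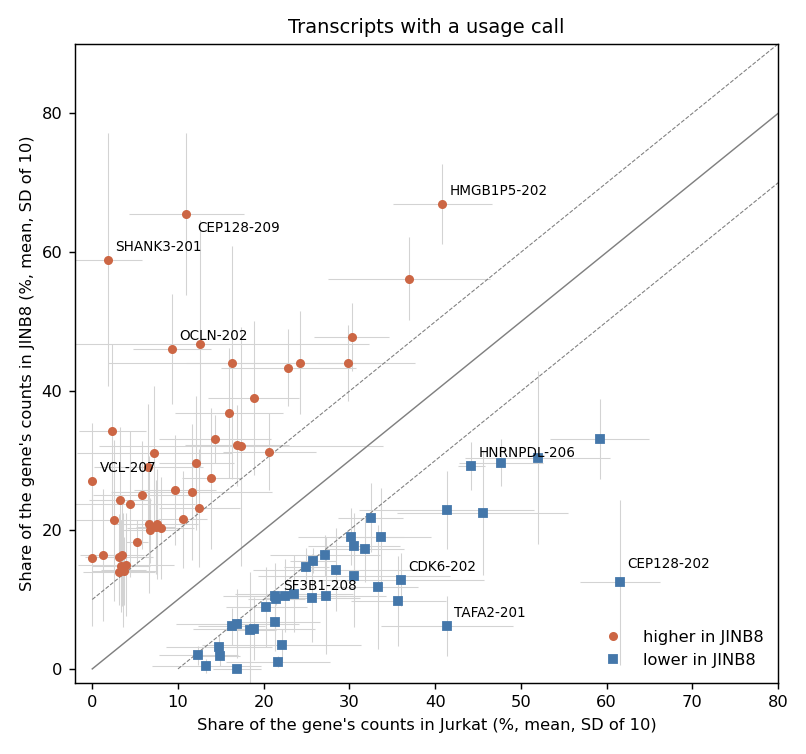
Mean share of the gene's counts in Jurkat (x axis, %) and JINB8 (y axis, %) for the 86 transcripts with a usage call, with SD bars over 10 libraries per line. The solid line marks equal shares and the dashed lines a shift of 10 percentage points. SHANK3-201 and CEP128-209 lie farthest above the line of equal shares and CEP128-202 farthest below it.

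Each transcript was set against the transcript of its gene that moved most in the opposite direction. Of the 86, 38 began at another first exon than this counterpart and 11 ended at another last exon. A cassette exon separated 32 from their counterpart, 9 differed by a retained intron and 29 by another splice site, with some in several classes. The annotated coding exons differed in 53, were the same in 13, and could not be compared in 20 because at least 1 of the 2 had no annotated coding region. Protein-coding transcripts made up 71 of the 86 (82.6%) and 52.7% of all transcripts tested. Of the rest, 4 were retained-intron transcripts, a class that made up 23.3% of those tested, and 3 were annotated for nonsense-mediated decay, which made up 9.24%. Of the transcripts higher in JINB8, 20 had a longer and 17 a shorter annotated coding region than the counterpart, and of those lower in JINB8, 11 had a longer and 19 a shorter one.

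In 5 genes (0.0498% of those tested) the transcript with the highest mean share differed between the lines and both leading transcripts had a usage call. These were CEP128, HMGB1P5, RNF213, TNFAIP8 and PPP2R5C. In CEP128, HMGB1P5 and TNFAIP8 one transcript led the other in all 10 Jurkat libraries and the order was the opposite in all 10 JINB8 libraries, whereas in RNF213 and PPP2R5C the Jurkat libraries were divided. CEP128 encodes a protein of the subdistal appendages of the mother centriole. CEP128-202 (chr14:80496474-80939540, minus strand) held 52.7% to 66.2% (median 62.9%) of CEP128 counts in Jurkat and 0% to 32.6% (median 14.7%) in JINB8, where 4 of 10 libraries had none. CEP128-209, which starts 2198 bases farther upstream, held 3.79% to 21.1% (median 9.804%) in Jurkat and 49.6% to 82.1% (median 65.8%) in JINB8. The ranges of the lines were far apart for both transcripts. The mean share of CEP128-202 was 61.6% ± 4.699 (SD, n = 10) in Jurkat and 12.5% ± 11.9 in JINB8, a fall of 49.1 ± 11.3 points (edgeR, adjusted p = 8.08e-09). That of CEP128-209 rose from 10.99% ± 6.67 to 65.6% ± 11.7 (adjusted p = 1.66e-05). When all transcripts with a first exon at either start were added up, the upstream start took 15.4% ± 8.64 of them in Jurkat and 84.3% ± 14.8 in JINB8. These are the 2 annotated starts whose upstream sequences are printed above. The exons of the 2 transcripts differ by 163 bases, of which the first exon of CEP128-209 makes up 158. CEP128-202 starts where the second exon of CEP128-209 starts, so the switch rests on this first exon. Both transcripts have the same annotated coding region of 3282 bases. The gene's total was lower in JINB8 as well, with 26103 counts in Jurkat and 6264 in JINB8 (log2 fold change -2.12 ± 0.07 (SE), adjusted p = 3.84e-12).

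RNF213 encodes a very large ubiquitin ligase with an ATPase core. RNF213-220 held 32.1% to 63.4% (median 37.3%) of RNF213 counts in Jurkat and 15.8% to 33.9% (median 21.2%) in JINB8, and RNF213-204 held 19.97% to 47.9% (median 38.02%) and 47.6% to 66.7% (median 56.3%). For both transcripts the ranges overlapped narrowly, and the direction was the same in all 10 pairs. In Jurkat each of them led in 5 of 10 libraries and RNF213-204 had the higher median, so the change of the leading transcript holds for the means alone. RNF213-204 led in all 10 JINB8 libraries. RNF213-220 fell by 18.5 ± 6.81 points (adjusted p = 2.72e-05) and RNF213-204 rose by 19.3 ± 5.91 points (adjusted p = 0.00275). RNF213-204 alone among the 3 compared transcripts contains the 147-base coding exon printed above. That exon was present in 44.1% ± 11.5 of them in Jurkat and 67.2% ± 7.21 in JINB8. The transcripts also end 3482 bases apart.

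TNFAIP8 is a TNF-induced regulator of cell death and lipid signaling. TNFAIP8-206, with a coding region of 594 bases, held 39.9% to 55.95% (median 47.8%) in Jurkat and 24.96% to 33.8% (median 29.7%) in JINB8, so that no JINB8 library reached the lowest Jurkat library. TNFAIP8-203, whose annotated coding region is 117 bases and which includes a further 119-base exon, held 21.3% to 36.9% (median 29.97%) in Jurkat and 35.5% to 51.7% (median 49.5%) in JINB8. TNFAIP8-206 fell by 17.98 ± 3.25 points (adjusted p = 0.00914) and TNFAIP8-203 rose by 17.6 ± 5.55 points (adjusted p = 0.00952), while the gene total rose as well (log2 fold change 0.67 ± 0.05 (SE), adjusted p = 3.98e-08). PPP2R5C encodes the B56 gamma subunit that targets protein phosphatase 2A to its substrates. PPP2R5C-205 held 23.1% to 36.7% (median 32.3%) in Jurkat and 10.3% to 22.1% (median 19.7%) in JINB8, without overlap, and PPP2R5C-202 held 24.9% to 35.2% (median 29.6%) and 34.8% to 51.9% (median 44.6%), with overlap at the edge. The difference was -14.5 ± 1.73 points for PPP2R5C-205 (adjusted p = 1.73e-05) and 14.2 ± 4.43 points for PPP2R5C-202 (adjusted p = 0.0275). The last exon of PPP2R5C-205 (chr14:101912401-101912625, plus strand) was used by 36.5% ± 5.29 of the compared transcripts in Jurkat and 19.7% ± 5.01 in JINB8. The mean share of PPP2R5C-205 at 1 h and at 6 h was 35.2% and 25.9% in Jurkat and 20.7% and 11.04% in JINB8, and its change with time had an adjusted p of 0.937 and 0.0447 in edgeR. PPP2R5C-202 had 29.03% and 33.6% in Jurkat and 43.3% and 50.4% in JINB8. PPP2R5C-202 thus led in the 3 Jurkat libraries at 6 h too, and the leading transcript differed between the lines at 1 h and 3 h, where PPP2R5C-205 led in all 7 Jurkat libraries.

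HMGB1P5 is a processed pseudogene of HMGB1, and its 2 transcripts differ only in how far they extend at both ends. HMGB1P5-201 held 59.2% ± 5.78 of its counts in Jurkat and 33.1% ± 5.75 in JINB8 (adjusted p = 0.00791), and HMGB1P5-202 the remainder (adjusted p = 0.0271). Reads of the pseudogene can also match the parent gene, so how the counting divided them is uncertain. The gene total did not pass the test (log2 fold change -0.09 ± 0.11 (SE), adjusted p = 0.527).

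**Figure D2:**
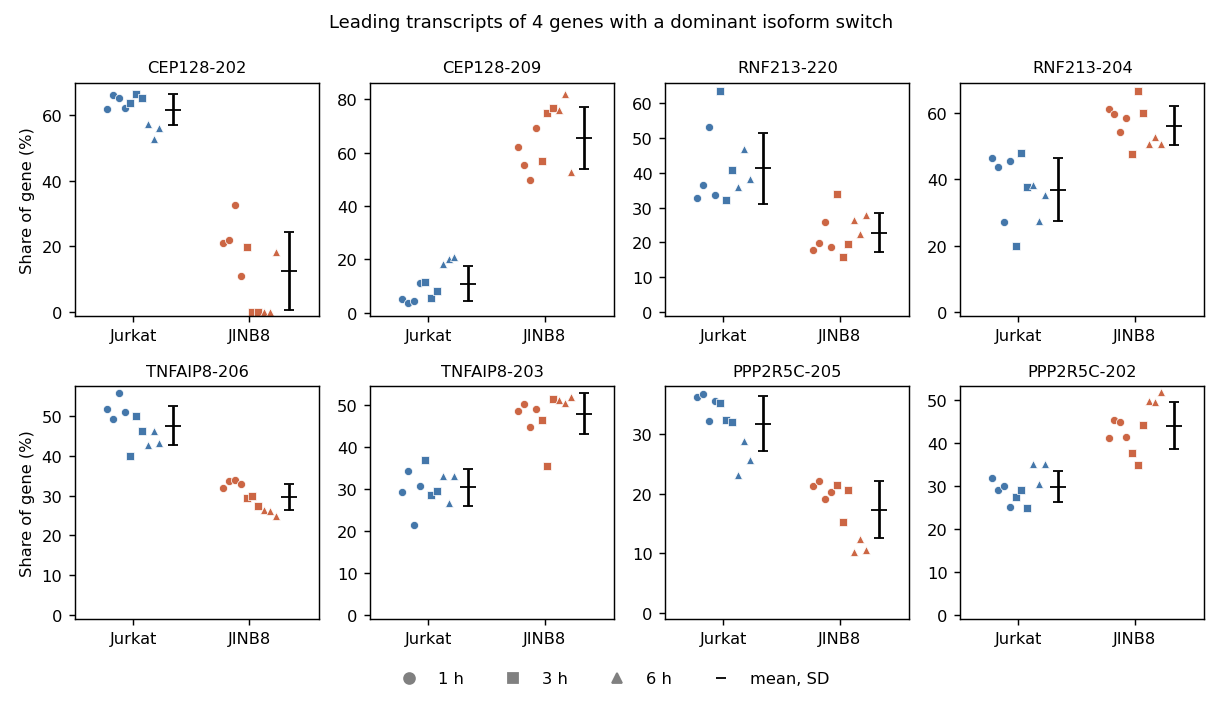
Share of the gene's counts (%, y axis) in every library for the leading transcripts of CEP128, RNF213, TNFAIP8 and PPP2R5C in Jurkat and JINB8. Circles, squares and triangles are libraries at 1, 3 and 6 h, and bars give the mean and SD of 10 libraries. CEP128-202 lies between 52.7% and 66.2% in Jurkat and at 32.6% or less in JINB8.

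Leaving out each pair in turn kept the switches of CEP128, RNF213 and TNFAIP8 in all 10 fits, that of RNF213 by its means. The PPP2R5C switch stood in 3 of them and the HMGB1P5 switch in 2. Without the pair term in the model, the CEP128 switch alone was called. In an edgeR fit with the spread of each transcript, the other 4 switches were called and that of CEP128 was lost, since CEP128-202 had an adjusted p of 0.0564. The leading transcripts differ in length, by 6976 against 1990 bases in TNFAIP8 and 1526 against 4328 in PPP2R5C for example. Dividing counts by transcript length before taking shares kept the CEP128 and HMGB1P5 switches and lost those of RNF213, TNFAIP8 and PPP2R5C.

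A total of 23 transcripts of 21 genes moved by 20 points or more, and those not yet described were chosen for description after their values were seen. The widest shift was in SHANK3, which encodes a scaffold protein of excitatory synapses and is weakly transcribed here, with 491 counts in all Jurkat libraries and 1336 in all JINB8 libraries. SHANK3-201 held 0% to 10.3% (median 0%) of these in Jurkat and 37.4% to 98.7% (median 54.6%) in JINB8. Its first exon lies 30604 bases from that of the counterpart, and its share rose by 57.1 ± 17.1 points (adjusted p = 1.83e-04).

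OCLN encodes the tight junction protein occludin, and OCLN-202 held 2.703% to 18.1% (median 9.16%) in Jurkat and 36.5% to 61.1% (median 44.5%) in JINB8 (adjusted p = 0.00681), again without overlap. CACNA1H-206, from the gene of the T-type calcium channel Cav3.2, rose from 2.34% ± 3.91 to 34.3% ± 12.5 (adjusted p = 5.27e-04). SLC9A5-201, from a sodium/proton exchanger gene, rose from 16.3% ± 14.4 to 44.1% ± 16.7 with overlapping ranges (adjusted p = 0.0219), and its call was lost when any of 4 pairs was left out. TAFA2-201, from a gene for a small secreted protein, fell from 41.4% ± 7.71 to 6.18% ± 4.28 (adjusted p = 3.68e-05). FXYD2-201, from the gene of a regulatory subunit of the sodium pump, fell from 51.9% ± 8.43 to 30.4% ± 12.5 (adjusted p = 0.0468), a call that was lost in each of the 10 fits that left out 1 pair.

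In VCL, which encodes the actin-linked adhesion protein vinculin, a transcript annotated for nonsense-mediated decay was found in JINB8 libraries. VCL-207 was at 0 in 9 of 10 Jurkat libraries and at 0.00546%, or 0.01 count, in the other, and it held 7.34% to 33.96% (median 29.3%) of VCL counts in JINB8 (adjusted p = 2.94e-12). Unlike its counterpart VCL-202, VCL-207 skips a 71-base coding exon (chr10:74043083-74043153, plus strand). MRTFA encodes an actin-regulated coactivator of serum response factor, and MRTFA-204 had 0 of 3600 MRTFA counts in Jurkat, which allows a share of up to 0.0833% by counting error alone. In JINB8 it held 4.05% to 30.7% (median 15.97%) (adjusted p = 2.81e-12). Its first exon was not absent from Jurkat, where 6.37% to 15.8% of compared transcripts used it, against 17.4% to 49.6% in JINB8. The 0 thus holds for the single transcript and not for its first exon. CAPG, which encodes an actin filament capping protein, had a transcript near 0 in JINB8. The first exon of this transcript, CAPG-204, was used by 22.0% of compared transcripts in Jurkat and 0.283% in JINB8 on average. CAPG-204 held 10.6% to 20.5% (median 17.7%) of CAPG counts in Jurkat and 0% to 0.1503% (median 0%) in JINB8 (adjusted p = 1.73e-17), while the gene total rose (log2 fold change 1.40 ± 0.07 (SE), adjusted p = 1.74e-10).

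CDK6 encodes the cyclin D-dependent kinase that drives entry into the cell cycle. CDK6-202 held 22.2% to 50.6% (median 35.8%) of CDK6 counts in Jurkat and 7.49% to 17.6% (median 13.8%) in JINB8, and every JINB8 library was below every Jurkat library. The fall was 23.2 ± 9.79 points (adjusted p = 3.04e-08). The 2 CDK6 transcripts start 2656 bases apart, at the sequences printed above, and share a coding region of 978 bases. The total of the gene was higher in JINB8, 644880 against 162699 counts (log2 fold change 2.05 ± 0.09 (SE), adjusted p = 1.17e-10). FBXW7 encodes the substrate receptor of a ubiquitin ligase that degrades cyclin E and MYC, and its alternative first exons are known to give proteins in different compartments. FBXW7-203 held 0% to 8.005% (median 3.99%) in Jurkat and 7.65% to 32.2% (median 14.99%) in JINB8, which overlapped slightly (adjusted p = 2.29e-08). Its coding first exon (chr4:152352470-152352826, minus strand) was used by 17.5% ± 10.8 of the 3 transcripts compared in Jurkat and by 65.8% ± 9.37 in JINB8. These 3 transcripts held 3014 of 16727 FBXW7 counts in Jurkat and 4399 of 17305 in JINB8. The gene total did not pass the test (log2 fold change 0.00 ± 0.06 (SE), adjusted p = 0.963).

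DUT encodes dUTPase, which keeps uracil out of DNA and is made in nuclear and mitochondrial forms from different first exons. DUT-205 held 25.3% to 38.7% (median 33.8%) in Jurkat and 0% to 29.8% (median 8.02%) in JINB8, and DUT-207 held 5.18% to 18.4% (median 12.6%) and 12.98% to 43.3% (median 30.9%). The first fell by 21.5 ± 5.49 points (adjusted p = 2.29e-08) and the second rose by 17.5 ± 6.83 points (adjusted p = 3.64e-04). DUT-207's first exon, 310 bases from that of DUT-205, was used by 18.8% ± 6.82 of the compared transcripts in Jurkat and 49.9% ± 17.1 in JINB8. MKNK2 encodes a kinase of the translation factor eIF4E whose known splice forms differ at the C-terminus. MKNK2-202, with a coding region of 1242 bases against 1395 in the counterpart, rose from 6.55% ± 6.397 to 29.05% ± 9.06 (adjusted p = 1.56e-04).

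ELMO1 acts with DOCK proteins to activate Rac, and ELMO1-207 rose from 15.98% ± 6.29 to 36.8% ± 9.32 (adjusted p = 0.00307). Its start lies 95196 bases from that of the counterpart, with the same coding region of 2181 bases. Metabolic genes with shifts of this size were CYP4V2, a fatty acid hydroxylase gene, ACADVL, for the first enzyme of very long chain fatty acid oxidation, and CISD3, for a mitochondrial iron-sulfur protein. CYP4V2-202 fell from 35.7% ± 5.55 to 9.73% ± 6.46 (adjusted p = 0.00183), ACADVL-203 rose from 22.8% ± 7.87 to 43.4% ± 5.56 (adjusted p = 7.20e-06), and the retained-intron transcript CISD3-205 fell from 21.6% ± 6.08 to 1.05% ± 0.801 (adjusted p = 2.19e-07). TRIM16-201 rose from 3.28% ± 3.63 to 24.3% ± 10.5 (adjusted p = 6.16e-05) and FAM217B-201 fell from 45.5% ± 10.01 to 22.5% ± 9.0002 (adjusted p = 3.30e-04).

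TMEM164-202 had libraries of the same line that fell far apart. In Jurkat it held 47.1% in the untreated library, 36.4% and 39.3% with CD3_CD28_TSP1 at 3 h and 6 h, and 1.79% or less in the other 7. In JINB8 it held 0.214% with CD3_CD28_TSP1 at 1 h and 36.1% to 61.96% in the other 9. It differs from its counterpart by 41 bases of exon, the smallest such difference among the 86, and the call was lost when any of 4 pairs was left out. In edgeR with the spread of each transcript, it was not called, nor were SLC9A5-201, VCL-207, MRTFA-204, DUT-205, MKNK2-202 and TRIM16-201.

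Calls with shifts under 20 points numbered 63, and the following were chosen after their values were seen. CDK5RAP2 organizes microtubules at the centrosome, and CDK5RAP2-201 rose from 24.3% ± 13.4 to 44.1% ± 7.44 (adjusted p = 0.0259). NUSAP1 bundles spindle microtubules, and NUSAP1-208 fell from 32.5% ± 3.76 to 21.8% ± 4.94 without overlap (adjusted p = 0.019998), while its gene total fell too (log2 fold change -0.95 ± 0.13 (SE), adjusted p = 1.63e-05). DSTN encodes the actin-severing protein destrin, and DSTN-201 fell from 28.4% ± 9.59 to 14.3% ± 6.001 (adjusted p = 6.04e-04). CANX encodes the chaperone calnexin, and CANX-202 rose from 12.5% ± 4.69 to 23.2% ± 8.51 (adjusted p = 5.30e-04). HP1BP3 binds heterochromatin, and HP1BP3-203, which has its own first exon, fell from 25.7% ± 2.68 to 15.6% ± 1.75 (adjusted p = 9.26e-04). TINF2 is a subunit of the shelterin complex at telomeres, and TINF2-208 fell from 16.9% ± 7.19 to 6.54% ± 4.95 (adjusted p = 0.00238). Several of these calls were lost when single pairs were left out, HP1BP3-203 in 5 of 10 fits, NUSAP1-208 in 4, CANX-202 in 3, and CDK5RAP2-201 and TINF2-208 in 2 each. CDK5RAP2-201 was also not called by DESeq2 (adjusted p = 0.237) or by edgeR with the spread of each transcript (adjusted p = 0.326).

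Of 57 RNA-binding proteins and kinases that regulate splicing, 56 could be tested and 7 (12.5%) had a usage call, HNRNPDL, MBNL1, TIA1, HNRNPK, SF3B1, CELF2 and CLK1, against 0.796% of all genes tested. These genes are deeply counted, with a median of 93352 counts over all libraries. Among genes with at least that many counts, 14 of 661 (2.12%) had a call, and leaving out the splicing regulators it was 10 of 633 (1.58%) against 4 of 28 (14.3%) of the regulators at this depth. All 7 called transcripts were lower in JINB8. Totals of the 56 genes rose in 6 and fell in 24 (adjusted p under 0.05), whereas 2899 of the 10049 genes tested rose and 2958 fell. At an adjusted p under 0.05 alone, 25 of 629 of their transcripts (3.97%) passed, against 1.37% of all. The largest shift per gene had a median of 3.82 points in this list and of 3.69 points over all genes. limma voom and DESeq2 called the same 7 genes, against 2.70% and 2.77% of all genes, so that the list stood less far above the background than in edgeR. The fit without the pair term called 4 (CELF2, MBNL1, TIA1 and SF3B1) against 0.498% of all genes, edgeR with the spread of each transcript called 5 (without HNRNPK and CELF2) against 2.29%, and leaving out the pair with the shallow JINB8 library lost CELF2.

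TIA1 binds uridine-rich sequences next to weak splice sites and is a core protein of stress granules. TIA1-205 held 3.85% to 20.04% (median 15.7%) of TIA1 counts in Jurkat and was at 0 in 8 of 10 JINB8 libraries, reaching 2.72% in the highest. It fell by 12.8 ± 7.003 points (adjusted p = 1.98e-21). The 33-base exon that it holds, printed above, separates the 2 classical TIA1 isoforms. Over all compared transcripts this exon was present in 23.4% to 40.99% (median 32.6%) in Jurkat and 12.4% to 17.4% (median 14.9%) in JINB8, without overlap. TIA1-203, which lacks it, rose from 60.6% to 74.6%.

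MBNL1 is a regulator of developmental splicing that is sequestered in myotonic dystrophy. MBNL1-206 held 9.56% to 17.2% (median 15.8%) in Jurkat and 0% to 4.17% (median 1.95%) in JINB8, well apart, a fall of 12.96 ± 1.98 points (adjusted p = 7.28e-19). It lacks the 95-base exon, which was present in 78.1% to 86.1% (median 80.98%) of compared transcripts in Jurkat and 94.8% to 99.4% (median 97.2%) in JINB8. The MBNL1 total did not pass the test (log2 fold change -0.07 ± 0.05 (SE), adjusted p = 0.3001).

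CLK1 is a kinase that phosphorylates SR proteins, and skipping of its 91-base exon is known to give a truncated protein without the kinase domain. CLK1-204, which skips it and is annotated for nonsense-mediated decay, held 21.7% to 29.2% (median 24.6%) in Jurkat and 11.3% to 20.01% (median 14.02%) in JINB8 (adjusted p = 0.0117). The exon was present in 55.5% ± 7.25 of the 4 compared transcripts in Jurkat and 72.1% ± 5.94 in JINB8. The lines differed at 6 h by -16.1 points, at 3 h by -7.02 and at 1 h by -8.198, and the call was lost when any pair at 6 h was left out. SF3B1 is the largest subunit of the U2 snRNP branch site complex. SF3B1-208, which retains an intron, held 17.3% to 26.7% (median 20.4%) in Jurkat and 8.84% to 11.5% (median 9.99%) in JINB8 (adjusted p = 1.03e-04), without overlap, while the coding transcript SF3B1-201 rose from 58.97% to 77.8%. HNRNPDL and HNRNPK both encode heterogeneous nuclear ribonucleoproteins. HNRNPDL-206 held 42.2% to 47.8% (median 44.2%) in Jurkat and 23.8% to 35.1% (median 29.05%) in JINB8 (adjusted p = 0.0243), without overlap, though the call was lost when any pair at 1 h was left out. HNRNPK-204 held 14.7% to 24.4% (median 18.6%) in Jurkat and 0% to 19.4% (median 0.1803%) in JINB8 (adjusted p = 1.18e-08), and the ranges overlapped through the JINB8 libraries at 6 h. CELF2, which promotes or represses exons during T cell activation, shifted in its first exon. CELF2-205 held 4.12% to 21.1% (median 12.4%) in Jurkat and 0% to 4.097% (median 1.91%) in JINB8 (adjusted p = 6.36e-06). Its first exon (chr10:11017930-11018163, plus strand) was used by 26.9% ± 7.67 and 4.37% ± 3.08 of compared transcripts. These ranges overlapped slightly, with a lowest value of 9.14% in Jurkat and a highest of 9.59% in JINB8. The compared transcripts held 10948 of 24129 CELF2 counts in Jurkat and 10787 of 26004 in JINB8. The CELF2 call was lost without UT at 1 h, CD3_CD28 at 1 h or CD3_CD28_TSP1 at 3 h.

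**Figure D3:**
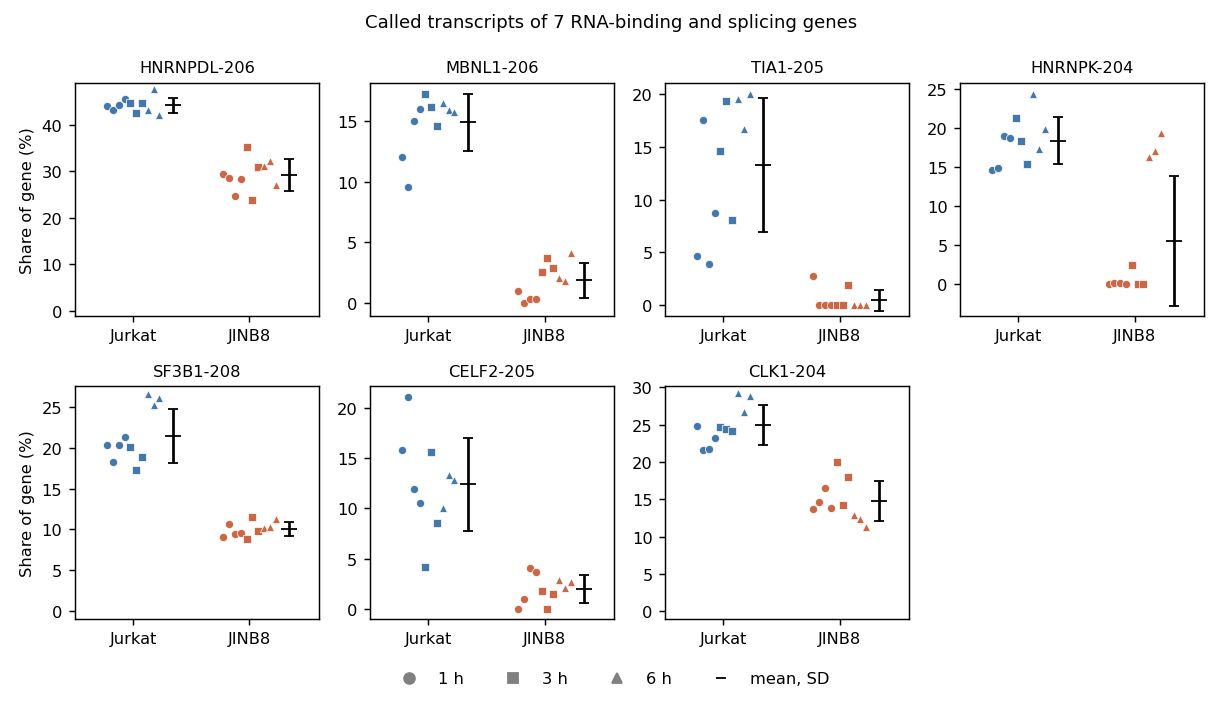
Share of the gene's counts (%, y axis) in every library for the called transcripts of 7 splicing regulators. Circles, squares and triangles are libraries at 1, 3 and 6 h, and bars give the mean and SD of 10 libraries. HNRNPK-204 lies between 16.3% and 19.4% in the JINB8 libraries at 6 h and at 2.51% or less in the 7 earlier ones.

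Exons were followed beyond the single called transcript by adding up all transcripts that hold or lack them. These sums are descriptions, since the exons were picked through the calls. Among 22 coding cassette exons, inclusion was higher in JINB8 in 13 and lower in 9, and it pointed the same way in all 10 pairs in 17. Of the 22, 13 were multiples of 3 bases. CEP57, for a centrosomal protein, included a 78-base exon in 87.3% ± 3.31 of compared transcripts in Jurkat and 74.3% ± 8.07 in JINB8. ESYT2, which tethers the endoplasmic reticulum to the plasma membrane, included a 63-base exon in 78.5% ± 4.69 and 68.1% ± 5.29, lower in 9 of 10 pairs. Of 36 genes whose called transcript began at its own first exon, the summed use of that exon pointed the same way in all 10 pairs in 34, and it differed by 20 points or more in 21. MAPK12, for the p38 gamma kinase, used the first exon of MAPK12-201 in 9.57% ± 8.31 of compared transcripts in Jurkat and 54.2% ± 9.84 in JINB8.

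**Figure D4:**
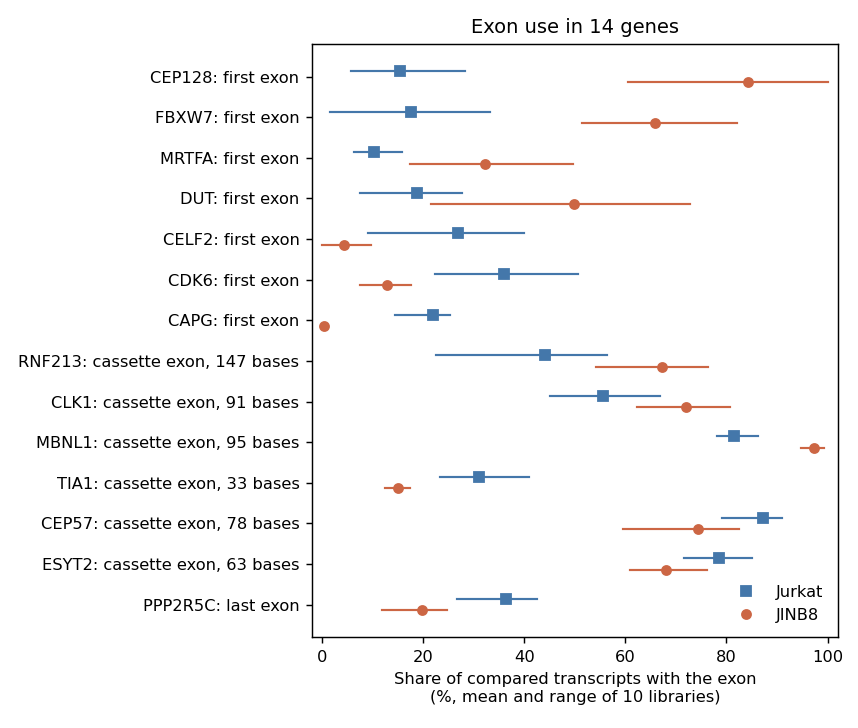
Share of compared transcripts that use a given first, internal or last exon (%, x axis) in 14 genes (y axis), with the mean and the range of 10 libraries for Jurkat (squares) and JINB8 (circles). The CEP128 and FBXW7 first exons and the MBNL1 and TIA1 cassette exons have ranges that do not meet between the lines.

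The other lists are small against a background of 0.796% of genes with a call, and a count of 0 in them is no result about their genes. No usage call fell among 34 tested genes of T cell receptor signaling, 25 of cell death, 32 cytoskeleton and trafficking genes known for cassette exons, 11 of the MYC network, or 4 of CD47 and its partners, and CELF2 was the single call among 21 genes with splice forms known in T cells. At an adjusted p under 0.05 alone, 1.37% of all transcripts passed. The share was 4.39% (9 of 205) for T cell receptor signaling, 5.29% (10 of 189) for genes with splice forms known in T cells, 3.74% (13 of 348) for the cytoskeleton genes, 1.33% (2 of 150) for cell death, 1.67% (1 of 60) for the MYC network and 0 of 34 for CD47 and its partners, so that cell death and the MYC network were near the background. These shares lie on both sides of the 3.97% of the splicing regulators. Other tools called more on these lists. limma voom and DESeq2 each called 4 of 21 genes with splice forms known in T cells (19.05%; CELF2, NFATC1, MAP4K2 and TCF12), a larger share than the 12.5% of the splicing regulators, at a background of 2.70% and 2.77% of genes. edgeR with the spread of each transcript called 3 of the 21 (14.29%, without CELF2) against 8.93% of the splicing regulators, at a background of 2.29%. All 3 fits also called NFATC1 in T cell receptor signaling (1 of 34), BCL2 in cell death (1 of 25), FLNA and EXOC1 among the cytoskeleton genes (2 of 32) and MAX in the MYC network (1 of 11).

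For CD47 itself no transcript passed the test. CD47-201 held 48.3% ± 4.52 in Jurkat and 44.8% ± 4.12 in JINB8 and CD47-202 held 30.3% ± 2.93 and 28.8% ± 8.72 (adjusted p = 1.00 for both), while the total was lower in JINB8 (log2 fold change -1.10 ± 0.05 (SE), adjusted p = 8.61e-11). The retained-intron transcript CD47-204 held 11.2% ± 2.202 and 15.4% ± 2.68 (adjusted p = 0.322), higher in JINB8 in all 10 pairs by 4.21 ± 2.97 points on average. MYCN, whose splicing the series title names, did not meet the gene minimum, with 189 counts in all Jurkat libraries and 2509 in all JINB8 libraries. The leading transcripts of MYC, MYCL and MCL1 had an adjusted p of 1.00, with a difference of -0.333 ± 10.9 points for MYC-210, -1.94 ± 24.3 for MYCL-202 and -0.5802 ± 14.1 for MCL1-207. In MAX, which encodes the dimerization partner of MYC proteins, MAX-205 was lower in JINB8 in all 10 pairs, 39.5% ± 16.97 against 28.6% ± 14.1, but did not pass the test (adjusted p = 0.4499). MAX-206, a transcript annotated for nonsense-mediated decay, passed it with a smaller difference, 7.17% ± 5.47 against 13.2% ± 6.17 (adjusted p = 0.0227). In PTPRC, which encodes CD45, PTPRC-209 held 21.7% ± 3.76 in Jurkat and 14.6% ± 2.84 in JINB8 (adjusted p = 0.0161), short of the 10-point minimum. PTPRC-201 held 67.2% ± 3.80 in Jurkat and 75.2% ± 2.94 in JINB8, higher in all 10 pairs, but did not pass the test.

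Shifts in usage were set against the totals of the same genes. Of the 80 genes with a usage call, 52 (65.0%) differed in their total at an adjusted p under 0.05 in edgeR, 32 higher and 20 lower in JINB8, against 58.3% of all genes tested for usage and 54.7% of all genes tested for their total. The other 28 (35.0%) had an adjusted p over 0.05 and an absolute log2 fold change under 0.3, against 40.4% of all tested. The extreme log2 fold changes among the 80 totals were 3.06 ± 0.09 (SE) for PRKG2, a cGMP-dependent kinase gene, and -4.24 ± 0.17 for DPYD. DPYD encodes the enzyme that degrades pyrimidines. Genes whose usage shifted with no call of the total included COPB2, a subunit of the coatomer coat, where COPB2-205 fell from 22.1% ± 9.29 to 3.398% ± 2.347 (adjusted p = 5.48e-14) with a log2 fold change of the total of 0.04 (adjusted p = 0.716). TSC2, which restrains mTORC1, was another, with a log2 fold change of the total of 0.09 (adjusted p = 0.285). TSC2-231 rose from 3.93% ± 5.61 to 14.998% ± 7.39 (adjusted p = 1.71e-04). It was not called in edgeR with the spread of each transcript (adjusted p = 0.0629).

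**Figure D5:**
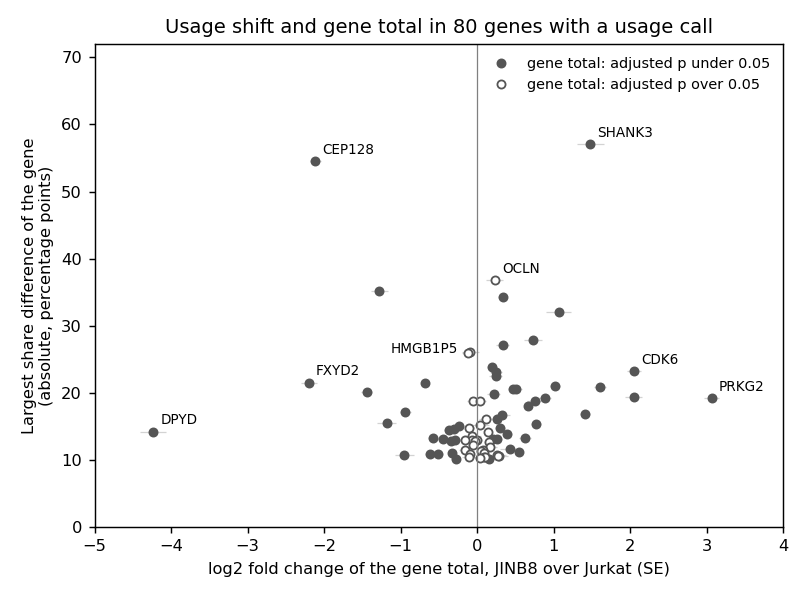
Largest share difference of each gene (y axis, percentage points, absolute) against the log2 fold change of its total, JINB8 over Jurkat (x axis, with SE), for the 80 genes with a usage call. Filled points mark the 52 genes whose total had an adjusted p under 0.05 and open points the 28 others. Genes lie on both sides of 0, from DPYD at -4.24 to PRKG2 at 3.06.

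Changes of usage with time from 1 h to 6 h and with activation were tested over all transcripts within each line. Activation was taken as CD3_CD28_TSP1 against TSP1, so both sides contained thrombospondin-1. The CD3_CD28 treatment without thrombospondin-1 was not part of this contrast. With edgeR, 522 transcripts (1.05%) changed with time in Jurkat and 810 (1.63%) in JINB8, 81 (0.163%) and 80 (0.161%) differed with activation, and 191 (0.383%) changed with time differently in the 2 lines. limma voom gave many more for time, 3654 in Jurkat and 4616 in JINB8, with 115 and 280 for activation and 226 for the difference between the lines. Of the 86 transcripts that differed between the lines, 4 changed with time in Jurkat, 11 in JINB8 and 4 differently in the 2 lines. HNRNPK-204 had the lowest adjusted p of the difference among them. It held 16.8%, 18.4% and 20.6% on average at 1, 3 and 6 h in Jurkat, and 0.112%, 0.837% and 17.6% in JINB8, where the 3 libraries at 6 h stood at 16.3%, 17.1% and 19.4%. The difference between the lines was -16.7 points at 1 h and -2.97 at 6 h, and the change with time differed between the lines (edgeR, adjusted p = 1.51e-09). CTNNB1-203, from the beta-catenin gene, went from 7.53% at 1 h to 0.254% at 6 h in JINB8 and from 20.5% to 15.5% in Jurkat (adjusted p of the difference = 0.00152). MBNL1-206 went from 0.411% to 2.69% in JINB8 and from 13.1% to 16.01% in Jurkat (adjusted p = 1.20e-04). The test compares ratios, and in points the difference between the lines moved little, -12.7 at 1 h and -13.3 at 6 h for MBNL1-206 and -12.9 and -15.2 for CTNNB1-203, so that both calls rest on JINB8 libraries near 0. MAX-205 rose with time in both lines, from 20.2% to 53.8% in Jurkat (adjusted p = 0.00957) and from 13.3% to 40.6% in JINB8 (adjusted p = 2.06e-04).

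Finally, all counts of a library were divided by the annotated class of the transcript. Protein-coding transcripts took 69.04% ± 1.67 of counts in Jurkat and 71.6% ± 1.66 in JINB8, higher in 9 of 10 pairs (exact sign-flip test over 10 pairs, two-sided, p = 0.00586, adjusted over 5 classes 0.0293). Transcripts annotated for nonsense-mediated decay took 2.43% ± 0.158 of counts in Jurkat and 2.52% ± 0.186 in JINB8, a difference of 0.0883 ± 0.0923 points that was higher in 7 of 10 pairs (exact sign-flip p = 0.0195, adjusted 0.0488). Retained-intron transcripts took 5.38% ± 0.398 of counts in Jurkat and 5.59% ± 0.522 in JINB8, which did not pass the test (exact sign-flip p = 0.291, adjusted 0.364). Processed transcripts and lncRNAs did not pass it either (adjusted p = 0.364 and 0.902 in the exact test). With 10 pairs the smallest p that this test can give is 0.00195.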

How the data were processed

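Poly(A) RNA of 20 libraries was sequenced as paired-end reads. The authors used Cutadapt 1.18 for trimming, STAR 2.4.2a in 2-pass mode for alignment to GRCh38 and RSEM 1.3.3 for expected counts per transcript and gene on GENCODE version 36. A strand setting is not given in the sources used here. The deposited expected counts were used and were rounded for the tests. The 2 columns that match no sample of the series were not used. Transcripts were matched by identifier to GENCODE version 44 on GRCh38 for names, exons and classes (98.9% of those tested), and 79 of the 86 called transcripts carried the same version there.

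Usage was tested with edgeR 4.0.16 (TMM scaling, glmQLFit, diffSpliceDGE, terms for pair and line) on transcripts passing filterByExpr (minimum count 10, total 15), with Benjamini-Hochberg adjustment over all transcripts. Gene totals were tested with edgeR quasi-likelihood and the same terms. Usage p-values are from this edgeR test unless another tool or fit is named beside them. limma 3.58.1 voom, DESeq2 1.42.0, other filters, subsets and leaving out pairs were alternatives, and the script was tested on simulated data. Named genes are at most 12 dominant switches with the largest shift, at most 8 of those with 1000 or more counts per line and no change of the gene total (5 and 1 met this), both with 50 or more differing exon bases, up to 5 called genes per list by largest shift, and CD47, MYCN, MYCL, MYC, MAX and MCL1. Others were chosen after their values were seen. The members, lists and tests were chosen with earlier results of these data known. Expected counts of overlapping transcripts are model estimates, so transcripts that share most exons are less certain than their totals, and intervals from counts cover counting error only. R was version 4.3.3.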

Additional observations from a re-analysis of the deposited data

Results flagged for a closer look

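In groups of 10 libraries, 1 library lay apart from the rest by more than Dixon's 95% criterion in 9 of 142 tested groups, where chance alone gives about 1 in 20. TNFAIP8-203 was lowest in JINB8 at 35.5% with CD3_CD28_TSP1 at 3 h, the library with the fewest counts of its line, 16107920. The Jurkat library with most counts, 31737615, was CD3_CD28_TSP1 at 6 h. MYCL-203 reached 60.5% in JINB8 with TSP1 at 1 h. TMEM164-202 stood at 0.214% in JINB8 with CD3_CD28_TSP1 at 1 h. VCL-207 was at 0.00546% in a single Jurkat library and lowest in JINB8 at 7.34% with CD3_CD28_TSP1 at 6 h. DSTN-201 (50.7%) and CEP57-201 (17.9%) were highest in Jurkat with CD3_CD28_TSP1 at 1 h.

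The change from 1 h to 6 h differed between the lines by edgeR's interaction test for MBNL1-206 (adjusted p = 1.20e-04), HNRNPK-204 (adjusted p = 1.51e-09) and CTNNB1-203 (adjusted p = 0.00152), among the transcripts named here. For MBNL1-206 and CTNNB1-203 this ratio test rests on JINB8 shares near 0, since the difference in points between the lines was -12.7 and -12.9 at 1 h and -13.3 and -15.2 at 6 h.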

How the results depend on the processing

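The number of usage calls depended on the tool: limma voom gave 356, DESeq2 364, and edgeR with the spread of each transcript and the gene total as offset, added after seeing the data, 295, against 86. Dominant switches were 24, 25 and 19 under these, against 5. Of the 86 calls, 86 were also called by limma voom, 84 by DESeq2 and 62 by the added fit. Without the replicate block for pairs there were 52 calls and 1 switch, and all 52 were among the 86. Library deviations of the same pair correlated at -0.0659 to 0.26, over 0.1 in 5 of 10 pairs, and 2 of 10 correlated best with their own pair. The 4 pairs without activation gave 32 calls and 0 switches, the 6 with activation 51 and 2, the pairs at 3 h 48 and 0. The switches were 1 at 1 h, 2 at 6 h, 2 without the low-count filter and 2 at a minimum shift of 20 points. Leaving out each pair gave 74 to 96 calls and 3 to 5 switches, and 52 of the 86 calls stood in all 10 such fits. DESeq2 size factors, a 5% share minimum and a 1000-count gene minimum kept both counts within 1.5 times, and length-divided shares gave 4 switches. limma voom called 3654 and 4616 transcripts for time in Jurkat and JINB8 and 280 for activation (CD3_CD28_TSP1 against TSP1) in JINB8. For the 68 named transcripts, 937 of 952 share differences under other settings moved by less than the SD of the pairs. Leaving out 1 of 10 pairs cannot move a mean that far, so such settings could not count as moved. With pairs of a single time, 189 moved by less than this SD, and the 15 others all came from there. The share of classes gave the same calls within the tested genes. The causes of these differences were not tested. Genes with few counts, such as SHANK3, limit the precision of shares.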
